A study of Homo sapiens with 9 samples.

Results

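The genes described here are 43 that make, check and clear proteins in the endoplasmic reticulum (ER). They comprise 14 ER chaperones and their co-factors, 10 enzymes of disulfide bond formation, 13 factors of ER-associated degradation (ERAD) and 6 sensors and transcription factors of the unfolded protein response. They were chosen by symbol, matched to Ensembl identifiers through GENCODE release 29, and all 43 were found among the 60675 genes of the deposited count table. RNA was measured in HCC827, an established human lung adenocarcinoma line with an activating EGFR mutation. The study compared cells stably carrying a control hairpin with no target (NS, non-silencing) with cells carrying 1 of 2 short hairpin RNAs against CBX5, named G1 and G7. CBX5 encodes the heterochromatin protein HP1 alpha. Each group had 3 libraries, which the design text calls biological replicates, so the 9 libraries come from 3 transformed cell populations of 1 line. No drug is named in the labels, and all groups, control included, carried a hairpin and grew in the same medium.

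Proteins that enter the ER are folded there by the chaperone BiP, by lectin chaperones that read their sugar chains, and by protein disulfide isomerases. When unfolded proteins accumulate, the membrane sensors IRE1, PERK and ATF6 are activated. IRE1 splices the XBP1 messenger RNA, ATF6 is cut free of the membrane, and both routes raise transcription of chaperone and ERAD genes, while PERK slows translation and raises the factor ATF4. ERAD draws misfolded proteins back into the cytosol, where the proteasome destroys them. Gene-level counts do not show XBP1 splicing, ATF6 cleavage or any protein.

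Library totals ran from 12701561 to 22372353 counts. The share of mitochondrially encoded genes was 13.4% to 19.8%, highest in G7 replicate 3, which also stood furthest from its fellow libraries: its chi-square over genes, divided by its degrees of freedom, reached 22.6, where library pairs without it reached at most 8.87. The members lower with G7 numbered 29 with that library and 29 without it. CBX5 itself averaged 369 ± 8.11 CPM (counts scaled to library size with TMM factors; SD, n = 3) in NS, 142 ± 0.595 in G1 and 203 ± 1.54 in G7, so the reduction was deeper with G1. Of 6 epithelial markers, all were detected, with summed levels of 9629 to 10603 CPM in NS, 13746 to 13939 in G1 and 11441 to 12116 in G7, and the part of this shift in the results below was not tested. Of 4 lung lineage markers, NKX2-1 and NAPSA were listed at 0 in all 9 libraries, and the cause of these 0 values was not tested. The lung lineage list summed to 0.65 to 1.21 CPM in NS, 0.053 to 0.321 in G1 and 0.559 to 0.745 in G7. Summed markers were 79.3 to 124 CPM for immune and plasma cells, nearly all of it SDC1, 13.2 to 15.9 for fibroblasts, and 71.1 to 92.8 for endothelium, mostly PECAM1.

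Most of the listed members had less RNA in CBX5-knockdown cells, and more so with G1 than with G7. The list was chosen with earlier results of these data known. The filter on low counts left 13264 genes and 38 of the 43 members. In these bulk samples fewer cells expressing a gene and less RNA per cell cannot be told apart. With G1, 34 of the 38 tested members fell (89.5%) and 1 rose, ERO1A, at a Benjamini-Hochberg adjusted p under 0.05 in edgeR's quasi-likelihood test. Among all genes tested, 28.7% fell and 30.4% rose with G1. With G7, 29 of the 38 fell (76.3%) and 0 rose, against 9.64% lower and 13.1% higher among all genes. The count of risen members with G7 was also 0 at an unadjusted p under 0.05 and 0 with DESeq2. The median log2 fold change of the tested members was -0.60 with G1 and -0.40 with G7, and of all genes -0.01 and 0.01. Both comparisons use the same 3 control libraries and are therefore not independent of each other.

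Upper quartile scaling shifted the balance over all genes without reversing that of the members. Under it 4815 genes were lower and 3066 higher with G1, in place of 3806 and 4031 with TMM. For G7 the split was 1603 lower and 1398 higher in place of 1279 and 1735, and for G1 against G7 it was 3751 and 2346 in place of 2870 and 3092. The members lower then numbered 35 with G1 and 30 with G7.

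Summed over the 43 members, the level was 11845 ± 250 CPM in NS, 7237 ± 69.9 in G1 and 8403 ± 113 in G7 (SD, n = 3). This was 1.64-fold less than control with G1 and 1.41-fold less with G7, and no library of a knockdown group reached any control library. The exact permutation test over libraries, two-sided, gave p = 0.1 for each, the smallest that 3 against 3 allows. HSPA5, HSP90B1 and CALR made up a large part of the sum. Without those genes the sum was still 1.46-fold lower with G1 and 1.31-fold lower with G7. That reduced sum still held CANX, the member with the most counts, at 2126 CPM in NS, 1592 in G1 and 1594 in G7.

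The filter removed the other members. TXNDC5, DERL1 and ERLEC1 were listed at 0 counts in all 9 libraries, which allows up to 0.139 to 0.227 CPM per library for counting error only. OS9 had 0 to 2 counts per library and DERL3 1 to 10. TXNDC5 shares 2658 of its 4387 exon bases with the read-through gene BLOC1S5-TXNDC5 on the same strand, and DERL3 shares 2923 of 3796 with SMARCB1 on the other strand. These low values are uncertain, because no source used here names the annotation or the strand setting of the counting, and their cause was not tested. Among tested members, PDIA3 shares 1410 and PDIA6 1033 exon bases with genes on the other strand, and PDIA5 shares 576 and SYVN1 461 with genes on the same strand.

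Many of these genes are known to be switched on through short promoter elements that bind ATF6 or XBP1 beside the factor NF-Y. Promoter windows from 250 bases before to 50 after the annotated start (RefSeq, GRCh38.p14) were found for 39 of the 43 members and searched on both strands for exact letters. The ER stress response element (ERSE) was searched as CCAAT, then 9 bases of any kind, then CCACG. It stood in the windows of 8 of the 39 members (20.5%), namely HSPA5, HSP90B1, CALR, CANX, CRELD2, PDIA6, ERO1B and XBP1, and in 25 of 27305 genes in the whole table (0.0916%). The shorter ERSE-II, searched as ATTGG, 1 base of any kind and CCACG, stood in 3 members (7.69%), HERPUD1, HYOU1 and SDF2L1, against 19 genes in all (0.0696%). The core of the unfolded protein response element, TGACGTGG, stood in 4 members (10.3%), HYOU1, DNAJC10, TXNDC11 and TXNDC5, against 253 genes in all (0.927%). ERSE was first described in chaperone promoters of this kind, so the shares describe the list and are no test of it.

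The stretches below carry the ERSE or ERSE-II matches of some members that fell with both hairpins, so that the forms of the motif can be compared. CANX and HSP90B1, whose matches overlap annotated exon bases, and PDIA6 also fell with both but are not printed. Each printed stretch is written 5′ to 3′ on the gene's own strand, without annotated exon bases, and the capitals mark the motif. A motif that begins CGTGG is a match on the opposite strand. They are HSPA5 at chr9:125241371-125241429 (minus strand), XBP1 at chr22:28800598-28800641 (minus), CALR at chr19:12938364-12938422 (plus), CRELD2 at chr22:49918534-49918592 (plus), ERO1B at chr1:236282163-236282208 (minus), HERPUD1 at chr16:56932005-56932047 (plus), SDF2L1 at chr22:21642094-21642144 (plus) and HYOU1 at chr11:119057254-119057413 (minus).
HSPA5, ERSE: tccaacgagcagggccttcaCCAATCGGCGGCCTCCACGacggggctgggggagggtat
XBP1, ERSE: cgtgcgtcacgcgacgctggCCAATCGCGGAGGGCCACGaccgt
CALR, ERSE: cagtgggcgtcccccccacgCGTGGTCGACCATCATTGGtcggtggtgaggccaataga
CRELD2, ERSE: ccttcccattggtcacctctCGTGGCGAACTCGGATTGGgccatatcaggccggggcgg
ERO1B, ERSE: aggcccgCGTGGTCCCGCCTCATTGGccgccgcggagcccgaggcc
HERPUD1, ERSE-II: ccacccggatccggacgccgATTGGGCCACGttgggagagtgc
SDF2L1, ERSE-II: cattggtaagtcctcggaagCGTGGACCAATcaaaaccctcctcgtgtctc
HYOU1, UPRE core and ERSE-II: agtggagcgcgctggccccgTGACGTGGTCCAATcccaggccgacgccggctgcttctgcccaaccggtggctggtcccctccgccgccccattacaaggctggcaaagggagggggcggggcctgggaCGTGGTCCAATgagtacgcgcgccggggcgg
In HYOU1 the first capital run holds a UPRE core and an ERSE-II that overlap, from -188 to -175 counted from the start, and the second run holds another ERSE-II.

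All 13 tested members with any of these motifs fell with G1, and 12 fell with G7, against 28.7% and 9.64% of all genes. The exception was TXNDC11, whose match lies after the start site. Their median log2 fold change was -0.93 with G1 and -0.55 with G7. The 23 tested members whose windows hold none had medians of -0.46 and -0.27, and 20 of them fell with G1 and 15 with G7. The groups overlapped widely, since DNAJB9 and MANF hold no exact match in these windows and were among the members that fell most. A match is a description of letters and not a measured binding site.

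**Figure D1:**
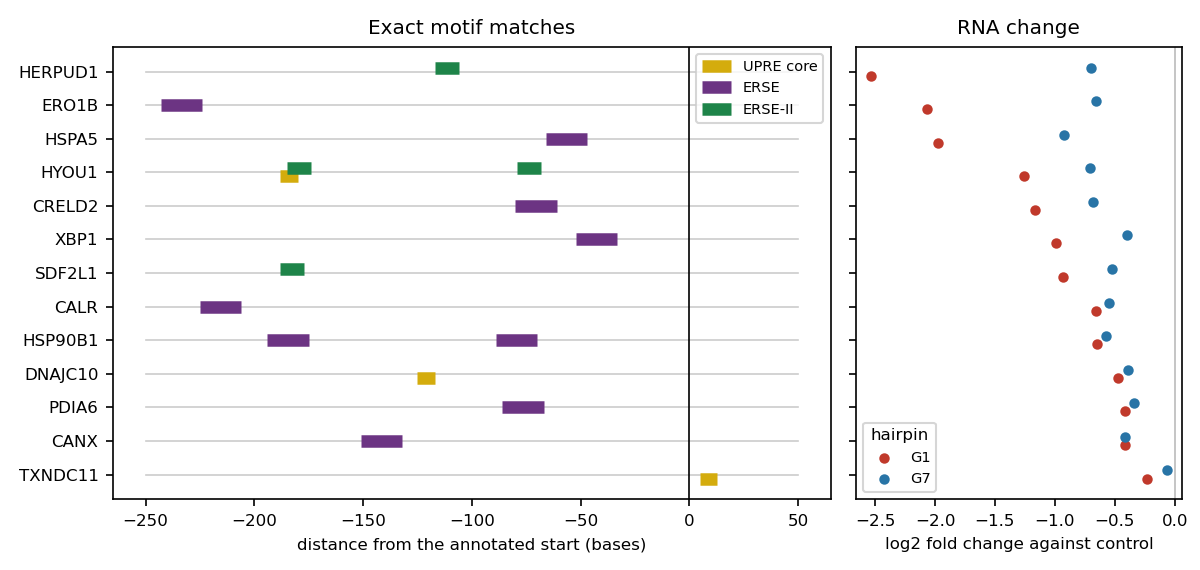
Left, position of exact motif matches in the promoter windows of the 13 tested members that hold one, in bases from the annotated start (vertical line); right, log2 fold change of each gene against control for G1 (red) and G7 (blue). All 13 genes lie below 0 with G1, from HERPUD1 at -2.54 to TXNDC11 at -0.23.

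The chaperone group fell almost as a whole. With G1, 13 of its 14 members fell, and with G7 all 14 did, against 28.7% and 9.64% of all genes. The group medians were -0.92 and -0.56. Of the 14, 6 fell by more than 2-fold with G1, together with ERO1B and HERPUD1 of the other groups, which made 8 of 38 against 5.27% of all genes. DNAJC3, at -1.001, only just passed that size, and DESeq2 gave 7 of 38, 5 of them chaperones. With G7, 0 of 38 members fell by more than 2-fold (0 with DESeq2 as well, and 0 at an unadjusted p under 0.05), and among all genes the share was 0.264%.

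HSPA5 (ENSG00000044574, chr9:125234853-125241330, minus strand) encodes BiP, the ER's main Hsp70 chaperone, which also holds the stress sensors inactive. Its levels were 1815, 1754 and 1729 CPM in NS, 446, 469.9 and 432 in G1, and 935, 964 and 893 in G7. The groups were fully separate, with G7 between control and G1. Such separation was common over all 13264 genes. Against control, 4186 genes lay wholly below and 4311 wholly above with G1, and 2114 and 2566 with G7. Between the hairpins, 3529 lay wholly lower with G1 and 3586 wholly higher. Of the 38 tested members, 33 lay wholly below control and 1 above with G1, and 31 and 0 with G7. Between the hairpins these numbers were 26 and 2. The log2 fold change was -1.97 ± 0.048 with G1 (SE; adjusted p = 6.47e-16), a 3.93-fold decrease, and -0.92 ± 0.046 with G7 (adjusted p = 3.56e-10), a 1.90-fold decrease.

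Partners of BiP followed. DNAJB9, a J-domain co-chaperone also called ERdj4, had 40.8, 38.1 and 38.3 CPM in NS, 9.25, 11.5 and 9.56 in G1, and 26.2, 25.2 and 22.1 in G7. It changed by -1.94 ± 0.089 with G1 and -0.67 ± 0.077 with G7. HYOU1, a large Hsp70-like protein that exchanges the nucleotide on BiP, had 246.5, 240.5 and 253.5 CPM in NS, 104, 102 and 103 in G1, and 148, 148 and 156 in G7. Its change was -1.26 ± 0.042 with G1 and -0.71 ± 0.041 with G7. For both genes the groups did not overlap and G7 lay in between.

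MANF, a small secreted ER protein that binds BiP, had 101, 106 and 97.6 CPM in NS, 29.9, 32.4 and 32.2 in G1, and 53.9, 53.4 and 58.1 in G7. The change was -1.69 ± 0.056 with G1 and -0.88 ± 0.052 with G7, again with separate groups. The other J-domain proteins fell less. DNAJC3 fell by 1.001 with G1 and 0.53 with G7 on the log2 scale, and DNAJB11 by 0.90 and 0.53. CRELD2, a disulfide-rich ER protein, fell by 1.16 and 0.68.

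SDF2L1, a component of BiP complexes, is among the less abundant of the group at 12.9 ± 2.73 CPM in NS. It fell by 0.93 with G1 and by 0.53 with G7 on the log2 scale. The G7 call was lost without NS replicate 3 (-0.36, adjusted p = 0.0924).

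The glycoprotein-folding and Hsp90-type chaperones fell by smaller amounts. HSP90B1, the ER's Hsp90 (GRP94), fell by 0.65 with G1 and 0.58 with G7 on the log2 scale. The lectin chaperone CALR fell by 0.66 and 0.55, and its membrane-bound relative CANX by 0.42 and 0.42. UGGT1, which re-tags unfolded glycoproteins for the lectins, fell by 0.37 and 0.33, and the proline isomerase PPIB by 0.56 and 0.46. For these genes the values with G1 and G7 lay closer together than for BiP and its partners.

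FKBP14, a proline isomerase of collagen-producing cells, stood apart. It had 3.85, 3.02 and 3.57 CPM in NS, 2.61, 3.32 and 2.57 in G1, and 2.22, 1.93 and 1.68 in G7. NS and G1 overlapped, whereas all G7 libraries were below the other groups. The change was -0.28 ± 0.171 with G1 (adjusted p = 0.162) and -0.84 ± 0.180 with G7 (adjusted p = 0.00249). It was also the lowest of the tested members per kilobase of annotated exon.

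**Figure D2:**
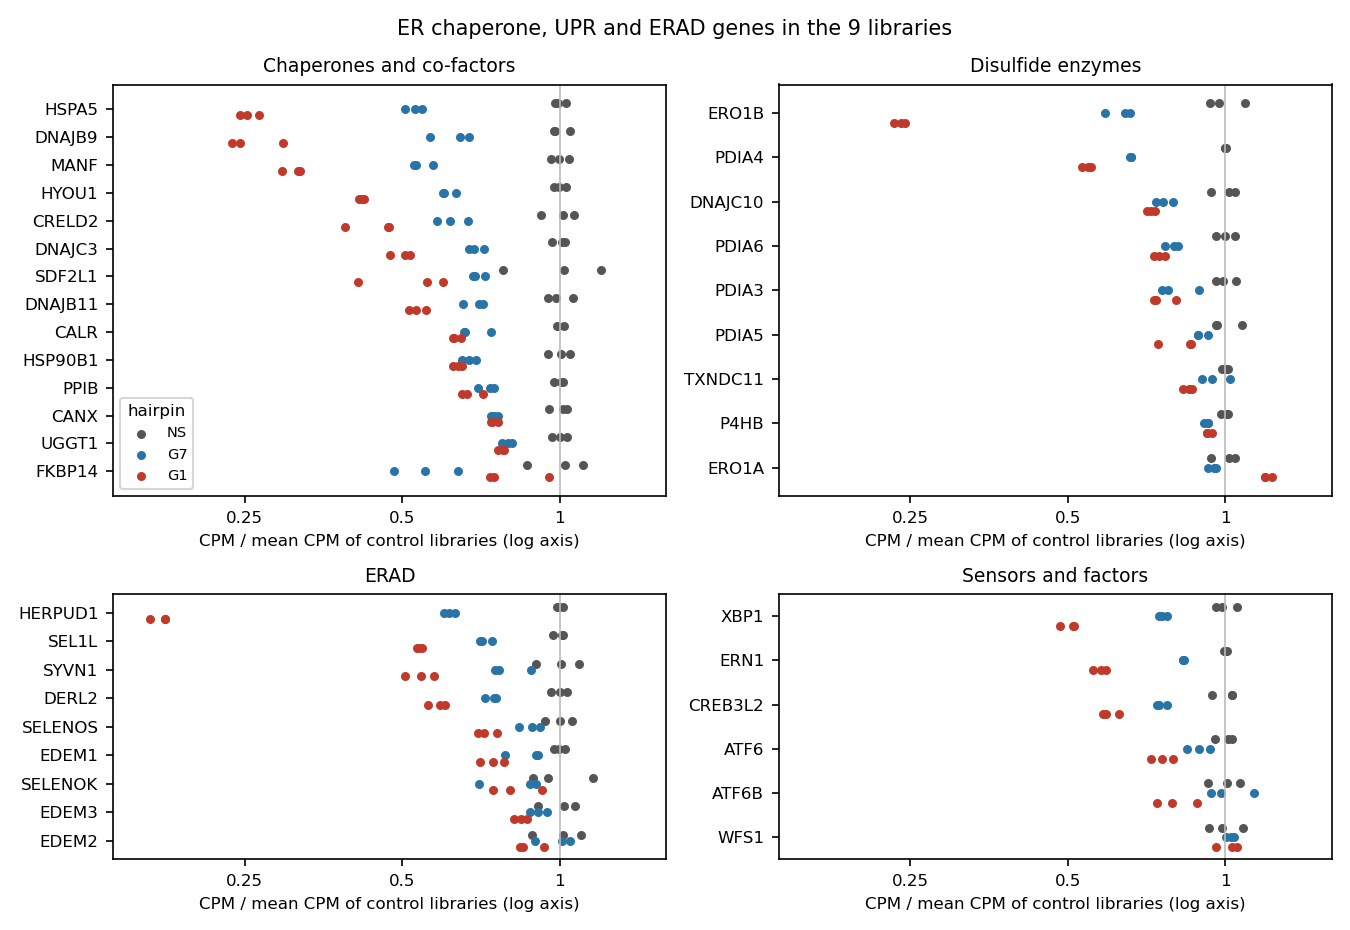
CPM of each tested member in each of the 9 libraries, divided by the gene's mean over the NS libraries, on a log axis; each point is 1 library (grey NS, blue G7, red G1), by functional group. HSPA5, DNAJB9, MANF, ERO1B and HERPUD1 show 3 separate clusters with G7 between NS and G1, while CANX, UGGT1 and P4HB show G1 and G7 side by side.

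The disulfide enzymes fell less than the chaperones, with 1 member far below the rest and 1 that rose. Of 9 tested members, 8 fell and 1 rose with G1 (median -0.40), and 6 fell with G7 (median -0.31). Over all genes, 28.7% fell and 30.4% rose with G1, and 9.64% fell with G7. ERO1B (ENSG00000086619, chr1:236215555-236281985, minus strand) is an oxidase that recharges the disulfide isomerases. It had 26.4, 22.6 and 23.6 CPM in NS, 5.81, 5.64 and 5.90 in G1, and 15.6, 14.3 and 15.9 in G7. It changed by -2.06 ± 0.094 with G1 (adjusted p = 1.97e-12), a 4.18-fold decrease, and by -0.66 ± 0.079 with G7 (adjusted p = 1.06e-05), with no overlap between groups.

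Its paralogue ERO1A did the reverse with G1. Levels were 190, 195.5 and 175 CPM in NS, 222, 223 and 230.0 in G1, and 173, 179 and 177.5 in G7. All G1 libraries were above all others, whereas NS and G7 overlapped. The change was 0.27 ± 0.044 with G1 (adjusted p = 4.24e-05) and -0.08 ± 0.045 with G7 (adjusted p = 0.215), and without NS replicate 3 the G7 value passed as a decrease (-0.12, adjusted p = 0.0415). ERO1A is also known as a hypoxia-responsive gene.

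PDIA4, a disulfide isomerase that works with BiP, had 761, 763.5 and 763 CPM in NS, 406, 423 and 417 in G1, and 502, 504 and 503 in G7. It fell by 0.88 and 0.60 on the log2 scale, and the groups did not overlap. DNAJC10 (ERdj5), a reductase that opens disulfides before export, had 231.5, 226 and 208 CPM in NS, 157, 163 and 159.9 in G1, and 169, 176 and 164 in G7. PDIA6, which also binds BiP and IRE1, had 381, 351 and 365 CPM in NS, 267, 281 and 273 in G1, and 292, 296.5 and 279.8 in G7. For these last genes both knockdown groups lay below control, and they overlapped each other in PDIA6 but not in DNAJC10.

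DNAJC10 fell by 0.47 with G1 and 0.39 with G7 on the log2 scale, and PDIA6 by 0.42 and 0.34. PDIA3, the isomerase partner of the lectin chaperones, fell by 0.40 and 0.31. P4HB, the classical protein disulfide isomerase, had the smallest change of the group with G1 and a similar one with G7: -0.11 ± 0.039 with G1 (adjusted p = 0.0251) and -0.12 ± 0.039 with G7 (adjusted p = 0.0353). Its calls were lost with no filter on low counts (-0.08, adjusted p = 0.196 with G1; -0.12, adjusted p = 0.0618 with G7), and the G7 call also with only the 2 groups in the fit (adjusted p = 0.0606). They depended on single libraries too, with adjusted p-values up to 0.0932 with G1 (without G1 replicate 3) and up to 0.124 with G7 (without G7 replicate 2). They were also lost without NS replicate 1, NS replicate 3 or G1 replicate 1 for G1, and without NS replicate 1, NS replicate 3, G1 replicate 2, G1 replicate 3 or G7 replicate 1 for G7. PDIA5 and the thioredoxin-like TXNDC11 fell with G1 (-0.29 and -0.23) and had values of -0.15 and -0.06 with G7, which did not pass.

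Among ERAD factors, 8 of 9 tested members fell with G1 and 5 with G7, against 28.7% and 9.64% of all genes. The group medians were -0.46 and -0.27. HERPUD1 (ENSG00000051108, chr16:56932048-56944863, plus strand), a membrane scaffold of the ERAD complex, had the largest decrease of all members with G1. It had 274, 268 and 269 CPM in NS, 47.6, 47.5 and 44.5 in G1, and 170.4, 162 and 166 in G7. The groups were far apart and tight, and G7 was again intermediate. The change was -2.54 ± 0.045 with G1 (adjusted p = 5.24e-18), a 5.80-fold decrease, and -0.70 ± 0.041 with G7 (adjusted p = 1.88e-09), a 1.63-fold decrease.

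The core ubiquitin ligase fell as well. SEL1L, its adaptor, had 268, 267 and 257 CPM in NS, 142, 144 and 141 in G1, and 187, 196 and 186 in G7. SYVN1 (HRD1), the ligase itself, had 98.9, 110.4 and 119 CPM in NS, 59.6, 55.5 and 63.0 in G1, and 84.0, 82.5 and 96.4 in G7. DERL2, of the derlin channel family, had 59.0, 61.5 and 63.4 CPM in NS, 37.1, 36.2 and 34.3 in G1, and 44.1, 46.3 and 45.9 in G7. None of these genes showed overlap between groups, though the highest SYVN1 library of G7 came close to the lowest control. On the log2 scale SEL1L fell by 0.89 with G1 and 0.48 with G7, SYVN1 by 0.89 and 0.32, and DERL2 by 0.77 and 0.43.

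The mannose-trimming proteins that mark glycoproteins for disposal had smaller changes than the ligase. EDEM1 fell by 0.43 with G1 and 0.21 with G7 on the log2 scale, EDEM3 fell by 0.24 with G1 (G7 -0.13, adjusted p = 0.144, or 0.028 without NS replicate 3), and EDEM2 fell by 0.19 with G1 (adjusted p = 0.0393) and stood at -0.02 with G7. The EDEM2 call was lost without NS replicate 1 (-0.12, adjusted p = 0.217), and likewise without NS replicate 3, G1 replicate 1 or G1 replicate 3, and with DESeq2 on all libraries (-0.17, adjusted p = 0.0911). SELENOS, a selenoprotein that recruits the extracting ATPase, fell by 0.46 with G1 and had -0.18 with G7 (adjusted p = 0.0646). That value passed without NS replicate 3 (adjusted p = 0.0383), under upper quartile scaling (adjusted p = 0.0336) and without mitochondrial genes (adjusted p = 0.048). SELENOK had -0.26 and -0.27, neither past the threshold (adjusted p = 0.0589 and 0.0902). The G1 value passed without NS replicate 3 (-0.34, adjusted p = 0.0360), without G1 replicate 2 or without G7 replicate 3. With all libraries it passed under upper quartile scaling (adjusted p = 0.0144), no filter (adjusted p = 0.0394), only the 2 groups in the fit (adjusted p = 0.0261) and without mitochondrial genes (adjusted p = 0.0496), and the G7 value passed with no filter (adjusted p = 0.0258).

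**Figure D3:**
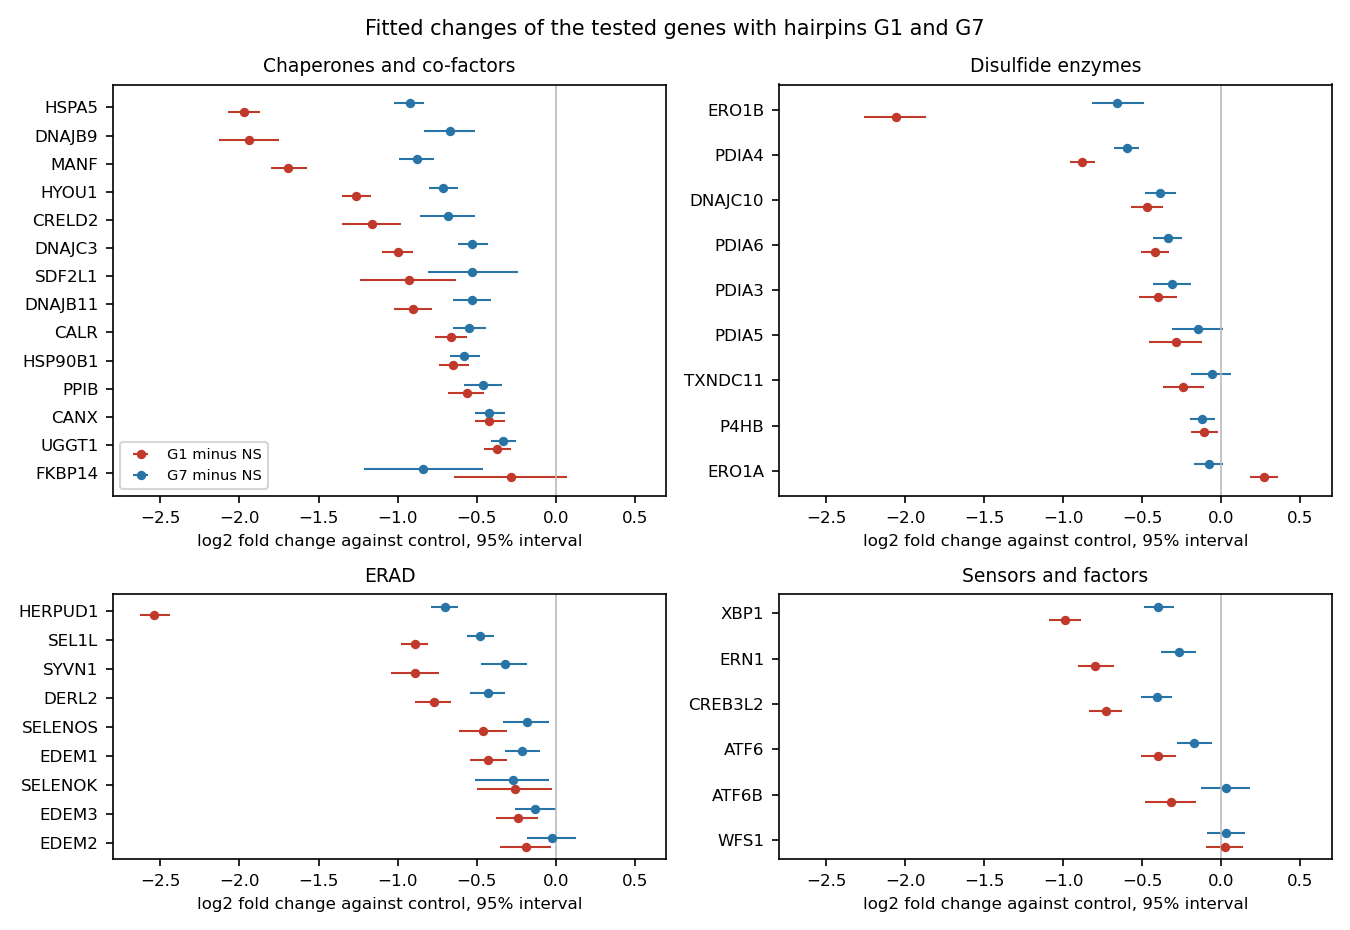
Fitted log2 fold change of each tested member against control with its 95% interval, for G1 (red) and G7 (blue), by functional group. HERPUD1 at -2.54 and ERO1B at -2.06 are lowest with G1, no member is below -1 with G7, and ERO1A at 0.27 with G1 is the single interval that lies wholly above 0.

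Of the 6 sensors and transcription factors, 5 fell with G1 and 4 with G7 (medians -0.57 and -0.22). Over all genes, 28.7% fell with G1 and 9.64% with G7. XBP1 (ENSG00000100219, chr22:28794555-28800597, minus strand), the factor activated by IRE1 splicing, had 145, 136 and 133 CPM in NS, 70.6, 71.0 and 66.5 in G1, and 104, 107 and 103 in G7. ERN1 (ENSG00000178607, chr17:64039142-64130819, minus strand), which encodes IRE1 alpha, had 46.2, 45.7 and 45.6 CPM in NS, 27.1, 25.6 and 26.6 in G1, and 37.99, 38.25 and 38.06 in G7. Both showed separate groups in the order NS, G7, G1. XBP1 changed by -0.99 ± 0.048 with G1 (adjusted p = 4.35e-12) and -0.40 ± 0.046 with G7 (adjusted p = 7.54e-06), and ERN1 by -0.80 ± 0.055 (adjusted p = 6.98e-10) and -0.27 ± 0.052 (adjusted p = 0.0012).

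CREB3L2, a membrane-bound transcription factor related to ATF6, had 117, 117 and 108 CPM in NS, 66.7, 67.5 and 71.5 in G1, and 84.5, 85.3 and 88.1 in G7. It fell by 0.73 with G1 and 0.41 with G7 on the log2 scale. ATF6 had 98.5, 100.3 and 93.1 CPM in NS, 70.2, 73.7 and 77.5 in G1, and 82.1, 86.8 and 91.0 in G7. Groups were separate in both genes, narrowly so for ATF6 between NS and G7. ATF6 changed by -0.40 ± 0.053 with G1 (adjusted p = 3.42e-06) and -0.17 ± 0.052 with G7 (adjusted p = 0.026), and the G7 call was lost without G7 replicate 1 (-0.13, adjusted p = 0.139), NS replicate 1, NS replicate 2 or G7 replicate 2.

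ATF6B, the paralogue of ATF6, fell by 0.32 with G1 and had 0.03 with G7 (adjusted p = 0.827). WFS1, an ER membrane protein that restrains ATF6 signalling, had 60.8 ± 4.52 CPM in NS, 61.7 ± 2.86 in G1 and 62.0 ± 1.13 in G7. Its log2 fold changes were 0.02 ± 0.057 and 0.03 ± 0.057, so it did not share the decrease of the other sensors and factors.

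The direct comparison of the hairpins showed where G1 and G7 differed. Of 38 tested members, 22 were lower with G1 than with G7 (57.9%) and 2 were higher, FKBP14 and ERO1A, against 21.6% and 23.3% of all genes. Of these, 4 were lower by more than 2-fold, against 2.44% of all genes. They were HERPUD1 (-1.84 ± 0.045), ERO1B (-1.40 ± 0.097), DNAJB9 (-1.27 ± 0.091) and HSPA5 (-1.05 ± 0.047). MANF followed at -0.81 ± 0.057, XBP1 at -0.59 ± 0.048 and SYVN1 at -0.57 ± 0.071.

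For a set of abundant folding factors the hairpins could not be told apart. CANX differed by less than 0.01 between G1 and G7, with a 95% interval from -0.10 to 0.09 on the log2 scale. UGGT1 had -0.04 (-0.12 to 0.05), HSP90B1 -0.07 (-0.17 to 0.03), P4HB 0.01 (-0.07 to 0.09) and PDIA6 -0.08 (-0.17 to 0.01). CALR had -0.11 (-0.21 to -0.01) with an adjusted p of 0.0647, and it passed without G7 replicate 1 (adjusted p = 0.0477) or G7 replicate 2. Under upper quartile scaling 31 members rather than 22 were lower with G1 than with G7, HSP90B1, CALR and PDIA6 among them.

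FKBP14 was higher with G1 than with G7 by 0.55 ± 0.182 (adjusted p = 0.0191). This call was lost without G1 replicate 2 (0.41, adjusted p = 0.124) or without G7 replicate 3 (0.45, adjusted p = 0.0764). ERO1A was higher by 0.35 ± 0.044 (adjusted p = 3.87e-06). The calls for SDF2L1 (-0.41, adjusted p = 0.0324) and TXNDC11 (-0.17, adjusted p = 0.0264) also rested on single libraries. SDF2L1 was lost without G1 replicate 1, G1 replicate 3, G7 replicate 1 or G7 replicate 2, and TXNDC11 without any 1 of the G1 libraries or without G7 replicate 3. TXNDC11 was also lost with all libraries under no filter (-0.14, adjusted p = 0.132) and DESeq2 (-0.16, adjusted p = 0.123). EDEM2 (-0.17, adjusted p = 0.0752) passed without NS replicate 2, G1 replicate 2 or G7 replicate 3, under upper quartile scaling (adjusted p = 0.0185) and with only the 2 groups in the fit (adjusted p = 0.0498).

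Per kilobase of annotated exon, the order of the members was led by the folding machinery itself. In NS, HSPA5 had 452 ± 11.4 CPM per kb, CALR 412 ± 6.93, CANX 341 ± 13.8, HSP90B1 336 ± 16.2 and PDIA4 233 ± 0.416. CANX and HSP90B1 did not differ beyond their spread. All of these were above the 99th percentile of tested genes. In G1, HSPA5 stood at 115 ± 4.88 CPM per kb and ranked 5 among the members, behind CALR at 261 ± 4.69, CANX at 255 ± 4.25, HSP90B1 at 215 ± 4.39 and PDIA4 at 127 ± 2.54. HERPUD1 went from rank 9 in NS to rank 23 in G1 and rank 10 in G7. With the longest transcript as the length, HSPA5 ranked 4 in NS and CALR 1, so the order at the top depends on the gene model.

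**Figure D4:**
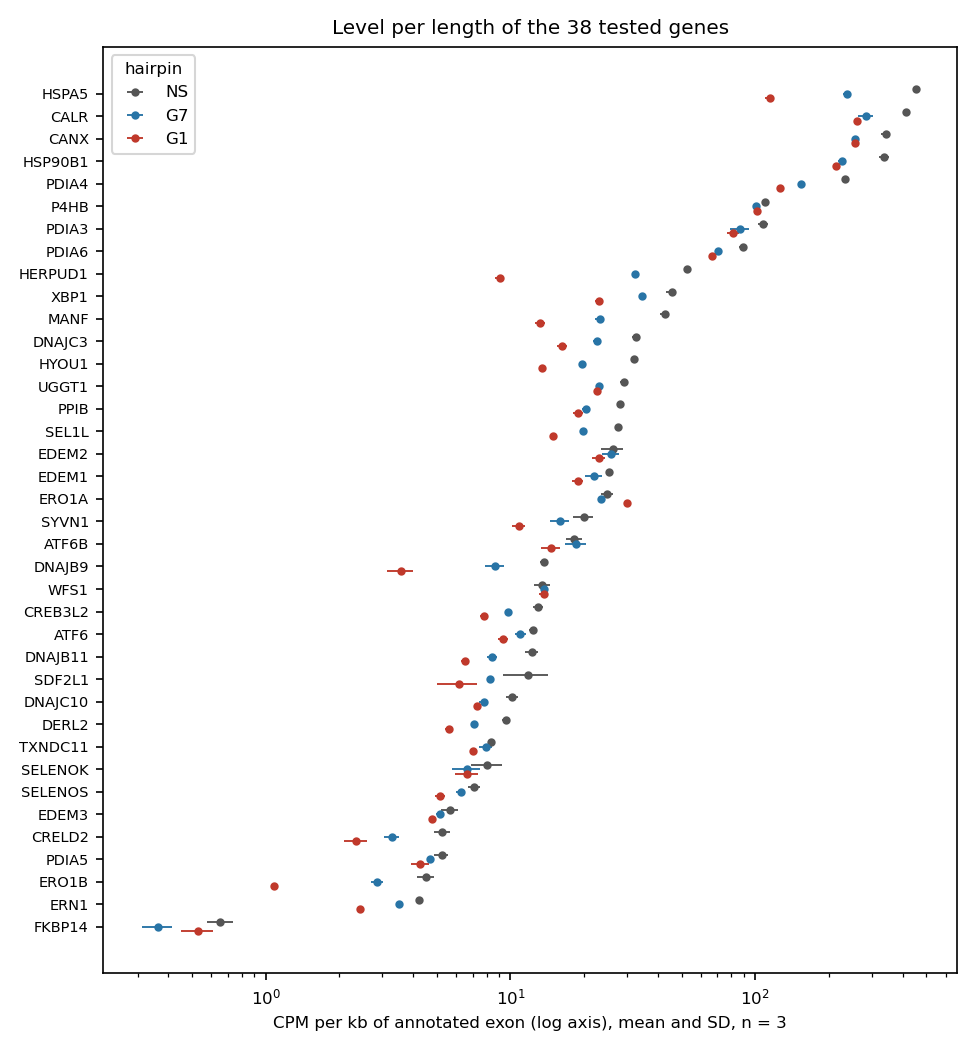
Level of each tested member in CPM per kilobase of annotated exon on a log axis, as mean and SD over 3 libraries, for NS (grey), G7 (blue) and G1 (red), sorted by the NS level. HSPA5 leads in NS at 452 and falls to 115 with G1, while CALR falls from 412 to 261.

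The PERK arm was measured with 11 genes that are not members, of which 10 were tested. With G1, 9 fell and 1 rose (median -0.93), and with G7, 4 fell (median -0.18), or 3 with DESeq2. The shares over all genes were 28.7% lower and 30.4% higher with G1, and 9.64% and 13.1% with G7. DDIT3 (CHOP), a factor of prolonged stress, averaged 3.40 CPM in NS, 0.394 in G1 and 2.103 in G7, with log2 fold changes of -3.11 ± 0.276 and -0.69 ± 0.186. Its G1 libraries, at 0.237, 0.369 and 0.578 CPM, were near the 0.158 to 0.193 CPM that a count of 0 allows there. ASNS, the asparagine synthetase and an ATF4 target, changed by -2.43 ± 0.069 and -0.52 ± 0.058. CHAC1, which degrades glutathione, changed by -2.83 ± 0.203 with G1 and had -0.33 ± 0.139 with G7 (adjusted p = 0.1).

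Upstream of these, EIF2AK3, which encodes PERK, fell by 0.56 with G1 and 0.33 with G7 on the log2 scale, and ATF4 by 0.55 and 0.20. PPP1R15A, which reverses the translation block, fell by 1.02 with G1 and had -0.12 with G7 (adjusted p = 0.125). The gene that rose with G1 was EIF2S1 (0.68), the translation factor that PERK phosphorylates; it is named because it was the exception. Between the hairpins 9 of the 10 were lower with G1, and 1 higher, against 21.6% and 23.3% of all genes.

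Genes that process the sensors did not move as a group. Of 10 in the list of sensor processing and the CREB3 family, 7 were tested. With G1, 3 fell and 2 rose (median 0.08), against 28.7% and 30.4% of all genes. For G7, 1 fell and 1 rose (median 0.07), against 9.64% and 13.1% of all genes. With DESeq2, 0 fell and 1 rose with G7. MBTPS1, the first protease to cut ATF6, fell by 0.15 with G1 and had -0.10 with G7 (adjusted p = 0.0785). MBTPS2, which makes the next cut, had 0.10 and 0.07, neither past the threshold. CREB3L4 fell by 0.82 with G1 and 0.26 with G7 (adjusted p = 0.0373), and DESeq2 did not call its G7 change. RTCB, the ligase that joins spliced XBP1, rose by 0.46 and 0.19, and CREB3L1 fell by 1.15 with G1 (G7 -0.34, adjusted p = 0.223).

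Among the remaining ERAD and ER folding genes, rises and falls were more evenly mixed, near the shares of all genes. Those shares were 28.7% lower and 30.4% higher with G1, and 9.64% and 13.1% with G7. Of 28 other ERAD genes, 7 fell (25%) and 9 rose (32.1%) with G1 (median 0.01), and 2 fell (7.14%) and 3 rose (10.7%) with G7 (median 0.03). VCP, the ATPase that pulls proteins out of the membrane, rose by 0.50 with G1 and had 0.07 with G7 (adjusted p = 0.406). Its co-factor UFD1 rose by 0.82 and 0.28, and SVIP, an inhibitor of ERAD, rose by 0.57 and 0.24. The G7 call of SVIP was near the threshold (adjusted p = 0.049), and its NS and G7 libraries overlapped. With DESeq2, 2 of the 28 fell and 1 rose with G7. Of 33 other ER folding genes, 30 were tested. With G1, 11 fell (36.7%) and 9 rose (30%; median -0.02), and with G7, 4 fell (13.3%) and 2 rose (6.67%; median -0.06). For G7, DESeq2 gave 4 lower and 0 higher. CRELD1 fell by 1.39 and 0.46 and ERP44, which retrieves ERO1 proteins, by 0.55 and 0.33, whereas the peroxiredoxin PRDX4 rose by 0.58 with G1 (G7 0.17, adjusted p = 0.0593).

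Chaperones of the cytosol moved opposite to those of the ER. Of 18 tested, all 18 rose with G1 (median 0.65) and 11 rose with G7 (median 0.22), against 30.4% and 13.1% of all genes. None of the 18 fell with either hairpin (0), also at an unadjusted p under 0.05 and with DESeq2. Between the hairpins, 17 were higher with G1, against 23.3% of all genes. HSPA8, the constitutive Hsp70, averaged 655.5 ± 11.7 CPM in NS, 1720 ± 69.5 in G1 and 913 ± 58.0 in G7, with log2 fold changes of 1.39 ± 0.051 and 0.48 ± 0.050. HSP90AA1 changed by 1.36 ± 0.052 and 0.50 ± 0.051, and AHSA1, which stimulates Hsp90, by 0.89 ± 0.041 and 0.35 ± 0.041.

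**Figure D5:**
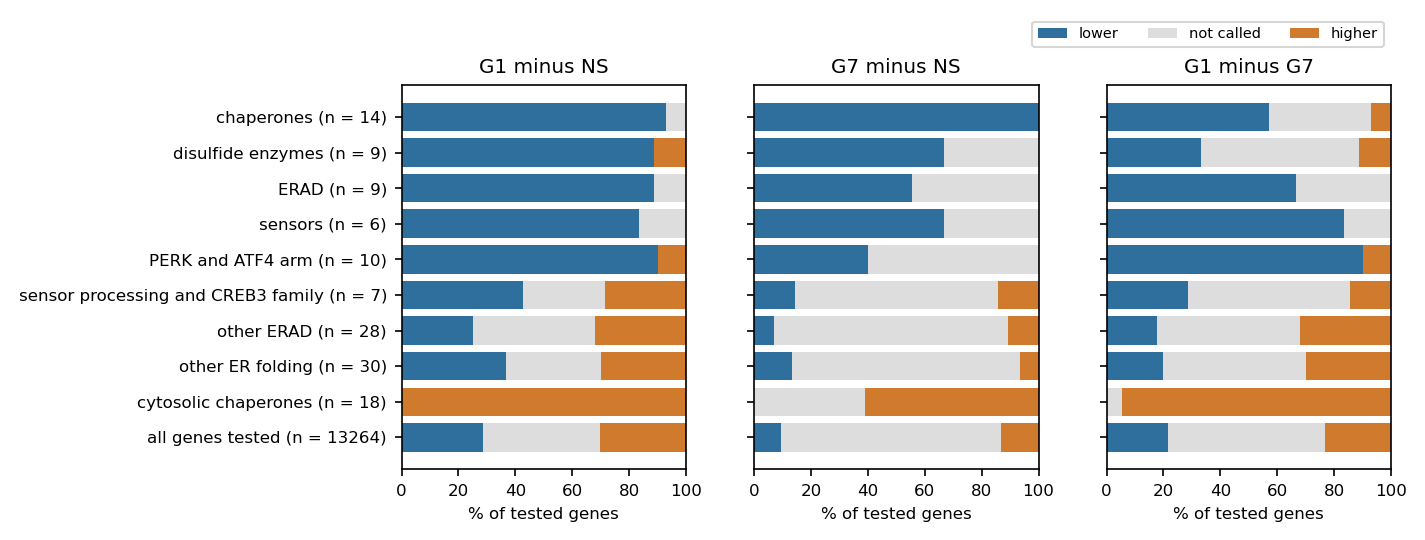
Share of tested genes called lower (blue), higher (orange) or not called (grey) at an adjusted p under 0.05 in each list and among all 13264 genes, for the 3 comparisons. With G1 the share lower is 92.9% for the ER chaperones, 25% for the other ERAD genes and 28.7% for all genes, and all 18 cytosolic chaperones are higher.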

How the data were processed

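RNA of 9 HCC827 libraries was read from the deposited table of raw read counts per Ensembl gene, made by the authors without normalization. The submitters' processing notes name HTSeq 0.6.0, TopHat2 2.1.0 and the genome build GRCh38 (hg38). No source used here names the annotation release, the strand setting or read filters. Per the labels' protocols, messenger RNA was selected with oligo-dT beads and the libraries were strand-specific. Symbols came from GENCODE 29, which matched 57055 of 60675 rows.

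Counts were filtered with filterByExpr, scaled by TMM and fitted with edgeR 4.0.16 (R 4.3.3; quasi-likelihood, 1 mean per group, all 9 libraries, common dispersion 0.00217). The contrasts were tested two-sided and adjusted by Benjamini-Hochberg over 13264 genes, with a threshold of 0.05. The procedure was run on simulated data in which far fewer genes changed than were called here, by the same amount in both knockdown groups. How it behaves with as many changed genes as here was not tested. Errors of log2 fold changes are standard errors. The p-values measure the spread between libraries of each transformed population. Same-numbered libraries deviated from their group means with correlations of -0.08 to 0.20 and were not treated as pairs.

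Named genes followed a rule: values in every library for the 4 members per functional group with the largest change with G1, for members that rose, and for HSPA5, XBP1, ERN1 and ATF6; of other genes, some by role (1 is not reported here) and the 3 called ones per list with the smallest p with G1. The members and lists were chosen with earlier results of these data known. Alternatives were other scalings, no filter, DESeq2 1.42.0, 2 groups only, no mitochondrial genes, a block for replicate number, each library left out, and a test against a 1.5-fold change. Retention signals of the proteins were not analysed here.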

Additional observations from a re-analysis of the deposited data

How the results depend on the processing

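The members lower numbered 33 to 35 with G1, 28 to 31 with G7 and 21 to 31 between the hairpins under RLE and upper quartile scaling, no filter, DESeq2, 2 groups only, no mitochondrial genes and the replicate block. Over all genes, the same settings gave 3032 to 4815 lower with G1, 873 to 1603 with G7 and 2046 to 3751 between hairpins. The genes tested then numbered 11631 to 24096. The block on replicate number gave 35, 31 and 22 members, beside 3835, 1317 and 2904 of 13264 genes. It lost no member's call and added SELENOK (-0.27 with G1, -0.28 with G7) and SELENOS (-0.19 with G7). Of the 9 libraries, 3 correlated best with their own number. Leaving out each library gave 32 to 35 lower with G1, 27 to 30 with G7 and 20 to 23 between hairpins, with 1 to 1, 0 to 0 and 1 to 2 higher. Over all genes these fits gave 3421 to 4003 lower with G1, 889 to 1356 with G7 and 2209 to 2866 between hairpins. They tested 13394 to 13470 genes. Tested against a 1.5-fold change, 17 members were lower with G1, 2 with G7 and 5 between hairpins, and 0 were higher with G1 or between hairpins, a stricter question by construction. Calls over all genes were not counted for this test, so these numbers have no share to stand beside. DESeq2 gave 1 higher between hairpins, since FKBP14 had 0.57 (adjusted p = 0.0754).

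Values that changed sign were all near 0 and uncalled. Under upper quartile scaling these were WFS1 (-0.071 with G1, -0.00 with G7), and P4HB (-0.048) and SELENOK (-0.047) between hairpins. CANX between hairpins was 0.005 with RLE, 0.026 with no filter, 0.015 with DESeq2 and 0.003 without mitochondrial genes, and WFS1 was 0.017 with no filter and 0.006 with DESeq2. Leaving out single libraries spread WFS1 from -0.029 to 0.079 with G1 and from -0.018 to 0.090 with G7. With G7, EDEM2 ran from -0.100 to 0.046 and ATF6B from -0.054 to 0.081. Between hairpins, CANX ran from -0.014 to 0.020, SELENOK from -0.094 to 0.080 and WFS1 from -0.023 to 0.029.

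With mitochondrial genes out of the total and no TMM scaling, the summed members were 0.562 of control with G1, 0.689 with G7 and 0.815 between hairpins, against 0.611, 0.709 and 0.861. By longest transcript, HSPA5 ranked 4, CALR 1 and HSP90B1 2 in NS. No other cause of these shifts was tested. With 3 libraries per group a permutation over libraries cannot go below p = 0.1. Changes of the members that the filter removed could not be assessed, the highest of them being DERL3 at 0.269 CPM in NS. The planned count of C-terminal retention signals was not run.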

Other observations

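Outside the members, 17 genes of the promoter table held an exact ERSE in their window. Of these, 14 were matched to the counts and 6 were tested. All 6 were lower with G1, where 28.7% of all genes were, and 3 were lower with G7, where 9.64% were. They were FICD (-1.47 with G1, -0.61 with G7), which modifies BiP, SYNPO (-0.91 and -0.37), SERP1 (-0.44 and -0.31), TRIM5 (-0.43, and -0.16 not past the threshold), ALG12 (-0.40, and -0.29 not past it) and TMEM120A (-0.26, and -0.02 not past it). ALG12 lies next to CRELD2, and SERP1 also belongs to the list of other ER folding genes, so these genes are not independent of the lists above. The genes were looked up after the members' promoters had been searched.

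For the other motifs the genes outside the members were mixed in direction. Of 11 tested genes with ERSE-II, 3 were lower and 7 higher with G1 (median 0.26), and 1 was lower and 5 higher with G7 (median 0.09). Of 109 with the UPRE core, 40 were lower and 23 higher with G1 (median -0.10), and 14 were lower and 13 higher with G7 (median -0.05). Among all genes tested, 28.7% were lower and 30.4% higher with G1, and 9.64% and 13.1% with G7.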
